A study of Mus musculus with 12 samples.

Results

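The genes described here are Mcm2 to Mcm7, which encode the 6 subunits of the replication helicase, Pcna, which encodes the sliding clamp of the DNA polymerases, and Mki67 and Top2a, mitotic genes set beside them. Their transcripts were measured in total RNA of submandibular gland, a salivary gland, from mice of strain C57BL6J aged 8 weeks or 50 weeks, on 6 Illumina bead arrays for each age. Per the labels no treatment or altered gene separates the groups, and age is the only named difference. The sources used here do not give the sex of the mice or say whether glands were pooled. Members were all probes whose single gene symbol in the array annotation was one of these 9 names, which gave 16 probes of 45281 on the array. They covered 8 of the 9 genes, whereas no probe carried Mki67 as its single symbol. The labels number the mice but do not say that every array is its own animal, so p-values measure the spread between these arrays, which may be technical in part.

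The Mcm proteins form a ring that is loaded onto replication origins in G1 by the origin recognition complex with Cdc6 and Cdt1. In S phase the ring is activated by Cdc7 kinase, Cdc45 and the GINS complex, and unwinds DNA ahead of the polymerases. Pcna is loaded behind it by replication factor C, holds the polymerases on DNA and also serves in DNA repair, so its transcript is not limited to dividing cells. The Mcm genes and Pcna are induced by E2F transcription factors at the G1/S boundary. Top2a, a topoisomerase that disentangles chromosomes, and Mki67, a coat protein of mitotic chromosomes, peak later in the cycle. Cells of the adult salivary gland divide rarely, and duct, acinar, vascular and immune cells each contribute dividing cells.

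The region before the start site is shown for the members whose changes are described at greatest length and for which a sequence was at hand. These are the 250 bases before the start of Mcm5, Mcm6 and Pcna, from RefSeq on GRCm38.p6, 5′ to 3′. Capitals mark the E2F-type letters TTCCCGC or TTGGCGC and the CCAAT box, each on either strand.
Mcm5, chr8:75109259-75109508, plus strand: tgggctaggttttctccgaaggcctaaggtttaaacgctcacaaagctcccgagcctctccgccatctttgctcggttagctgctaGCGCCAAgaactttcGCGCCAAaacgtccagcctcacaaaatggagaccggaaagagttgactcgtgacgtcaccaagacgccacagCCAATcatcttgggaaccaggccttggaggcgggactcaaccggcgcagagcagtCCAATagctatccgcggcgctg
Mcm6, chr1:128359706-128359955, minus strand: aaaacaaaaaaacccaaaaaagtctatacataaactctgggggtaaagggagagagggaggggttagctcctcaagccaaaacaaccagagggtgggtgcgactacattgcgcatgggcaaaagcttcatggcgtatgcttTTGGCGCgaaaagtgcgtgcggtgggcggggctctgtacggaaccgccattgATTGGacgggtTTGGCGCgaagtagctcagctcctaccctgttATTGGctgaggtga
Pcna, chr2:132253181-132253430, minus strand: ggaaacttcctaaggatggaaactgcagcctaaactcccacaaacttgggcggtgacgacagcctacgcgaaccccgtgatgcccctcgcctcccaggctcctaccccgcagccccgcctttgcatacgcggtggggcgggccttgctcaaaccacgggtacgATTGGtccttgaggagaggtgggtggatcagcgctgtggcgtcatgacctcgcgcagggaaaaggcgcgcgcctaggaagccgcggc
The Mcm5 and Mcm6 windows each held 2 E2F-type matches and 2 CCAAT matches, and the Pcna window held 0 E2F-type matches and 1 CCAAT match. Of 9 windows of 8 member genes, 5 windows of 4 genes had an E2F-type match (Mcm5, Mcm6, both windows of Mcm7, and Mki67), against 5.62% of all 32851 windows of the same length. A CCAAT box stood in all 9 member windows, against 33.85% of all windows. No E2F-type match overlapped a CCAAT match. The letters TTTGAA, the core of the element bound by the cell cycle repressor complex at mitotic genes, were present in 3 member windows, those of Mcm2, Mki67 and Top2a, against 15.99% of all windows. A match describes these letters in this window, and no binding was measured.

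The arrays had a mean probe intensity of 207 to 324 and 15318 to 18110 probes detected, which means a detection p-value under 0.05. On the 8-week arrays 15321 to 16433 probes were detected, and on 50 weeks arrays 1 to 5 it was 16570 to 18110. Detection was thus more frequent over all probes on those old arrays, which limits what detection counts of a single probe show. The array named 50 weeks array 6 stood apart: its mean correlation with the other old arrays was 0.949, that of the remaining arrays with their own age started at 0.975, and it had the fewest probes detected. Genes of the submandibular gland were present, with Egf, Klk1 and Klk1b22 of the granular ducts and Aqp5 of acini detected on all 12 arrays. Smgc, listed with Aqp5 but not taken here as particular to acini, was also detected on all 12. Nrtn, also listed for the granular ducts, was detected on 0 of 12. The sublingual genes Dcpp1, Dcpp2 and Dcpp3 were likewise detected on all 12 arrays, at mean log2 levels of 14.4 to 15.2. These lists therefore do not set submandibular apart from sublingual RNA. The levels of 3 parotid genes were summed on the linear scale and taken as log2. This sum ran from 8.35 to 14.19 over the 8-week arrays and from 8.02 to 14.01 over the 50-week arrays. The level of these parotid genes therefore differed between arrays of the same age. Whether this reflects parotid tissue in the samples was not tested. Cuzd1, also listed for parotid gland, was detected on 0 of 12 arrays. Levels in RNA of a whole gland cannot tell fewer cells of a type from less RNA per cell.

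Transcripts of 5 of the 6 helicase genes and of Pcna were detected, while Top2a and Mcm3 were at background on nearly every array. A probe was kept for testing when it was detected on at least 6 of 12 arrays, and 8 of the 16 member probes, of 6 genes, were kept. The best probes of Mcm2, Mcm4, Mcm6, Mcm7 and Pcna were detected on 12 of 12 arrays and that of Mcm5 on 11 of 12. None of the 3 Top2a probes was kept: ILMN_2830661 was detected on 1 of 6 arrays at each age, and ILMN_1255436 and ILMN_1242235 on 0 of 12 arrays, with detection p-values from 0.154 to 0.828 and from 0.502 to 0.969. The deposited intensity of the first ran from 90.1 to 115 at 8 weeks and from 94.7 to 125 at 50 weeks. These ranges overlap, and fitted without the detection filter the log2 difference of Top2a was 0.01 ± 0.13 (SE; 95% interval -0.27 to 0.29), a value at the level of background from which no change can be read.

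Mcm3, the remaining helicase subunit, had 1 probe, ILMN_2851040, which was detected on 0 of 6 arrays at 8 weeks and on 1 of 6 at 50 weeks. That array was 50 weeks array 1, at a log2 intensity of 5.19, and the others of both ages lay between 4.37 and 4.86. No fold is given for Mcm3, since it was not well above background at either age. Some probes of well detected genes were also at background. Probes ILMN_2752009 and ILMN_2752010 of Mcm4, ILMN_1236125 of Mcm6 and ILMN_2673889 of Mcm7 were detected on 0 of 12 arrays, while another probe of the same gene was detected on 12. A background reading of a single probe therefore need not mean that the transcript was absent, which applies to Mcm3 and Top2a as well.

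**Figure D1:**
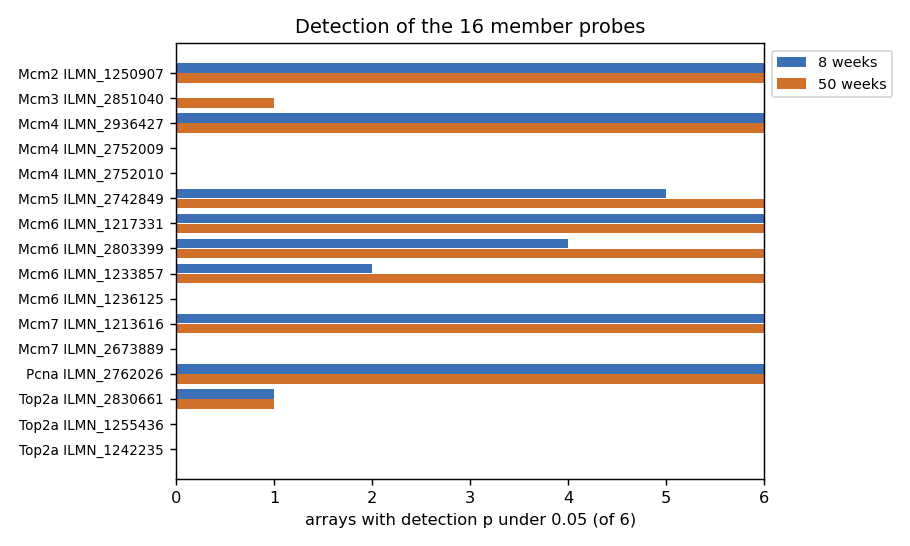
Number of arrays, of 6 at each age (horizontal axis), on which each of the 16 member probes (vertical axis) had a detection p-value under 0.05. Blue bars are 8 weeks and orange bars 50 weeks. All 3 Top2a probes and the Mcm3 probe had at most 1 array per age, while the Mcm2 and Pcna probes and the brightest probes of Mcm4, Mcm6 and Mcm7 had 6 at each age.

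The ages were compared on background-corrected, quantile-normalised log2 intensities by the moderated test of limma, with Benjamini-Hochberg adjustment over all 9379 genes measured and a threshold of 0.05. Each gene was represented by its brightest kept probe. Of the 6 member genes measured, 2 passed, Mcm5 and Mcm4, both higher at 50 weeks. Of all genes 12.5% passed, 6.35% in the higher direction and 6.13% in the lower. The other 4 did not pass. The median difference of the 6 members was 0.31 on the log2 scale and that of all genes -0.02.

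Mcm5, a subunit at the gate through which the ring opens onto DNA, rose. Its log2 intensity (probe ILMN_2742849) at 8 weeks had a lowest value of 4.98, a median of 5.38 and a highest of 5.59, and at 50 weeks 5.81, 6.03 and 6.52. Every 50-week array lay above every 8-week array, and the array that did not detect it was 8 weeks array 3, the lowest of all. Over all genes the ages did not overlap in 6.45%, in 3.34% with the older group higher. Means were 5.35 ± 0.23 and 6.11 ± 0.30 (SD, n = 6), a difference of 0.75 ± 0.14 (SE; 95% interval 0.45 to 1.06), or 1.69-fold (limma, adjusted p = 0.00432). The exact permutation p over the 12 arrays was 0.00216 (2-sided), the smallest that these arrangements can give. In the deposited intensities, before any scaling, Mcm5 ran from 105 to 144 at 8 weeks and from 142 to 200.0 at 50 weeks, close to background, and the size of the change depends on how background is removed. Without background correction it was 0.26 and on the authors' scaled values 0.24, still past the threshold (limma, adjusted p = 0.00845 and 0.0124). The order of Mcm5 and Mcm4 was not the same in every setting. Without background correction Mcm4 differed by 0.25, slightly less than Mcm5, and on the authors' values by 0.27, more than Mcm5.

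Mcm4, which belongs to the stable Mcm4, Mcm6 and Mcm7 core of the ring, also rose. Probe ILMN_2936427, detected on all 12 arrays, had log2 intensities of 7.20, 7.33 and 7.43 (lowest, median, highest) at 8 weeks and of 7.53, 7.68 and 8.05 at 50 weeks. The groups did not overlap, with 50 weeks array 6 highest and 50 weeks arrays 4 and 5 nearest to the young arrays. The difference was 0.39 ± 0.09 (SE; 95% interval 0.19 to 0.59), a 1.31-fold rise from 7.33 ± 0.08 to 7.71 ± 0.20 (SD, n = 6; limma, adjusted p = 0.0163; exact permutation p = 0.00216). Without 50 weeks array 6 it was 0.32 (limma, adjusted p = 0.00697). With median scaling of the arrays instead of quantile normalisation it was 0.53 and the call ended (limma, adjusted p = 0.0781); the median difference of all genes was then 0.10. Without background correction it was 0.25 and on the authors' values 0.27 (limma, adjusted p = 0.012 and 0.00585).

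Mcm6 gave different answers by probe. The brightest, ILMN_1217331, had log2 intensities of 6.29, 6.52 and 7.03 (lowest, median, highest) at 8 weeks and of 6.72, 6.82 and 7.43 at 50 weeks. The highest young arrays were 8 weeks arrays 1 and 2, and 2 of 6 old arrays exceeded them. Its difference of 0.33 ± 0.15 (SE; 95% interval 0.02 to 0.65) did not pass (limma, adjusted p = 0.161; exact permutation p = 0.0671), and without background correction it was 0.17. On the background-corrected values the dimmer probes differed more. Without background correction ILMN_1217331, ILMN_2803399 and ILMN_1233857 differed by 0.17, 0.19 and 0.15. On the authors' values these differences were 0.18, 0.19 and 0.14, so the probes were then much alike in size of change. ILMN_1233857, detected on 2 of 6 arrays at 8 weeks and on 6 of 6 at 50 weeks, ran from 4.85 to 5.34 at 8 weeks and from 5.44 to 5.76 at 50 weeks without overlap. In a fit of all 16254 kept probes, of which 9.64% passed and 4.95% passed as higher, it differed by 0.54 ± 0.10 (SE; limma, adjusted p = 0.00562). ILMN_2803399, detected on 4 and 6 of them, ran from 4.74 to 5.85 and from 5.84 to 6.09, and differed by 0.60 ± 0.17 (SE; limma, adjusted p = 0.0413). With each gene taken as the mean of its kept probes, Mcm6 differed by 0.49 and passed (limma, adjusted p = 0.0126). The dimmer probes passed the detection filter through their 50-week arrays, and the call of ILMN_2803399 ended in 12 of 19 alternatives, among them leaving out any of 8 weeks arrays 1, 4 and 5 or 50 weeks arrays 1 to 5 (limma, adjusted p up to 0.0891). The call of ILMN_1233857 ended with median scaling and on the authors' values (limma, adjusted p = 0.0561 and 0.0783), and on the latter its difference was 0.14.

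Mcm2 and Mcm7 did not pass. Mcm2, whose protein carries a histone-binding tail (probe ILMN_1250907), had log2 intensities of 5.68, 6.16 and 6.42 (lowest, median, highest) at 8 weeks and of 6.27, 6.40 and 6.67 at 50 weeks. The lowest value was 8 weeks array 2, and 3 of 6 old arrays were above every young array. The difference was 0.28 ± 0.12 (SE; 95% interval 0.02 to 0.54; limma, adjusted p = 0.152; exact permutation p = 0.039). It was 0.19 without 8 weeks array 2, and 0.12 both without background correction and on the authors' values. Mcm7, another core subunit (probe ILMN_1213616), had 5.34, 5.81 and 6.18 at 8 weeks and 5.92, 6.08 and 6.27 at 50 weeks, with 1 of 6 old arrays above every young array. It differed by 0.28 ± 0.13 (SE; 95% interval 0.003 to 0.56; limma, adjusted p = 0.179; exact permutation p = 0.0671), and by 0.10 without background correction and 0.11 on the authors' values. By the exact permutation test taken alone 3 of the 6 member genes had p under 0.05 (Mcm2, Mcm4 and Mcm5), while 27.2% of all genes did. Such a p is not adjusted for the number of genes, and it is not particular to the members.

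**Figure D2:**
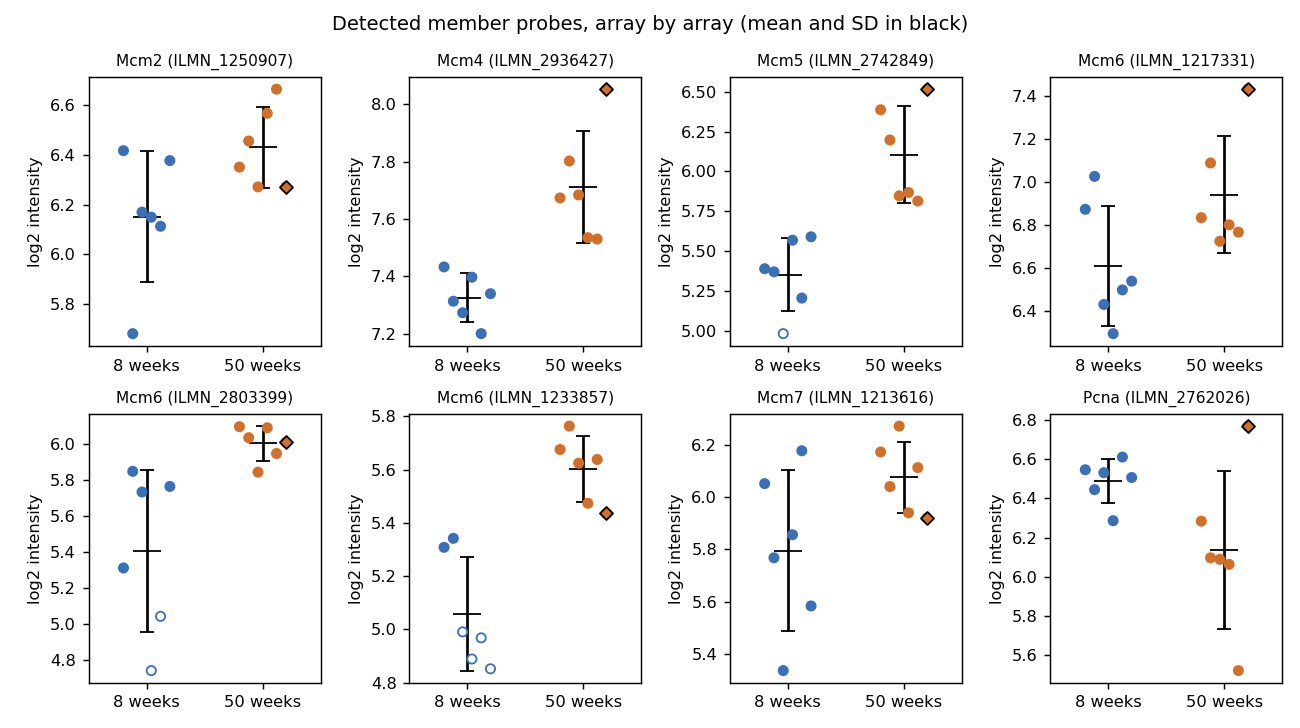
Log2 intensity (vertical axes, each with its own range) of the 8 kept member probes on every array, 8 weeks in blue and 50 weeks in orange. Open points are arrays with a detection p-value of 0.05 or more, diamonds mark 50 weeks array 6, and black bars are means and SD of 6 arrays. Mcm4, Mcm5 and probe ILMN_1233857 of Mcm6 do not overlap between ages, and Pcna is lower on 5 of 6 old arrays.

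The fitted difference of Pcna was negative, unlike those of the helicase genes, and did not pass. Its log2 intensity (probe ILMN_2762026) had a lowest value of 6.29, a median of 6.52 and a highest of 6.61 at 8 weeks. On 50 weeks arrays 1 to 5 it was 6.28, 6.10, 6.09, 6.06 and 5.52, each below every young array. On 50 weeks array 6 it was 6.77, above every young array. The means were 6.49 ± 0.11 and 6.14 ± 0.40 (SD, n = 6), a difference of -0.35 ± 0.16 (SE; 95% interval -0.68 to -0.02) that did not pass (limma, adjusted p = 0.161; exact permutation p = 0.0628). Without 50 weeks array 6 it was -0.48 and passed (limma, adjusted p = 0.0116), when 25.1% of all genes passed. Without 50 weeks array 5, the lowest, it was -0.23 and did not pass (limma, adjusted p = 0.293). With array weights it was -0.50 and passed (limma, adjusted p = 0.0101), when 27.6% of all genes passed. Without background correction, on the authors' values and with median scaling it was -0.14, -0.14 and -0.21, and did not pass. Whether the change of Pcna differs from that of a Mcm gene was not tested.

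**Figure D3:**
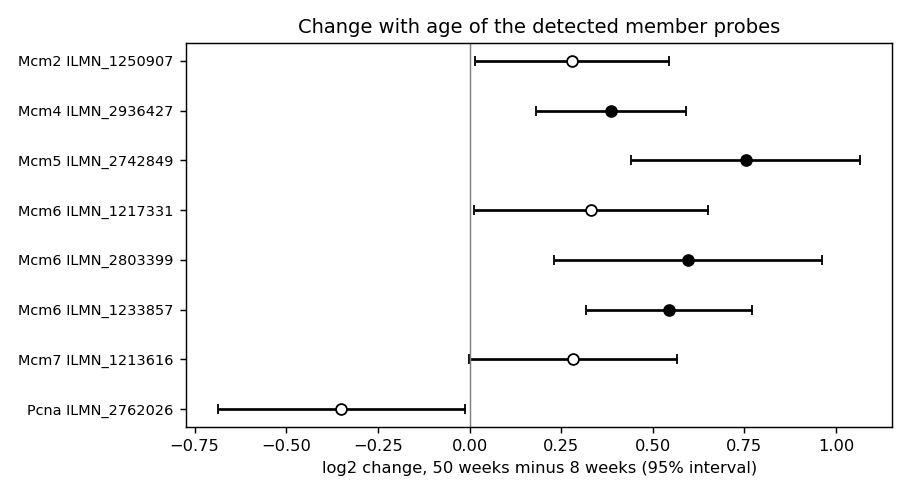
Log2 change with age (horizontal axis, 50 weeks minus 8 weeks) of the 8 kept member probes, with 95% intervals from the fit of all kept probes. Filled points passed at an adjusted p under 0.05. All 7 Mcm probes lie above 0 and Pcna at -0.35 lies below.

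In the normalised values the array that stood apart, 50 weeks array 6, was the highest old array for 4 of the 6 member genes, Mcm4, Mcm5, Mcm6 and Pcna, and the lowest for Mcm7. In the deposited intensities, before any scaling, it was the lowest old array for Mcm4 (265) and Mcm5 (142) and the second lowest for Mcm6 (198) and Pcna (153). Its mean probe intensity was also the lowest of the old arrays, 223 against 256 to 302. Its place in this order therefore depends on whether the arrays are scaled to each other. With the mean of each age removed, the members were not uniformly alike over the 12 arrays. Pearson's r was 0.74 between Mcm4 and Mcm5 (Spearman's rho 0.69), 0.65 between Mcm4 and Mcm6 and 0.69 between Mcm4 and Pcna (rho 0.37). Without 50 weeks array 6 these fell to 0.62, 0.34 and 0.27. Mcm2 had negative r with each other member, from -0.38 to -0.03, and Mcm7 lay between -0.12 and 0.03 with all others. Without that array Mcm2 had -0.30 to -0.03, and Mcm7 had 0.09 to 0.18 with Mcm4, Mcm5, Mcm6 and Pcna, so the sign of most Mcm7 values turned. These values describe 12 arrays that share amplification and scaling and are uneven in the level of parotid genes. The other genes with the highest mean r to the 5 measured Mcm genes were B3gnt5 (0.51), Rpa3 (0.50), Cenpx (0.47), Zfand1 (0.46) and Myh9 (0.46), and the lowest were Deptor, Naa30 and Zdhhc16 (each -0.45). These were ranked among 9373 genes, of which none had a mean r above 0.51.

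**Figure D4:**
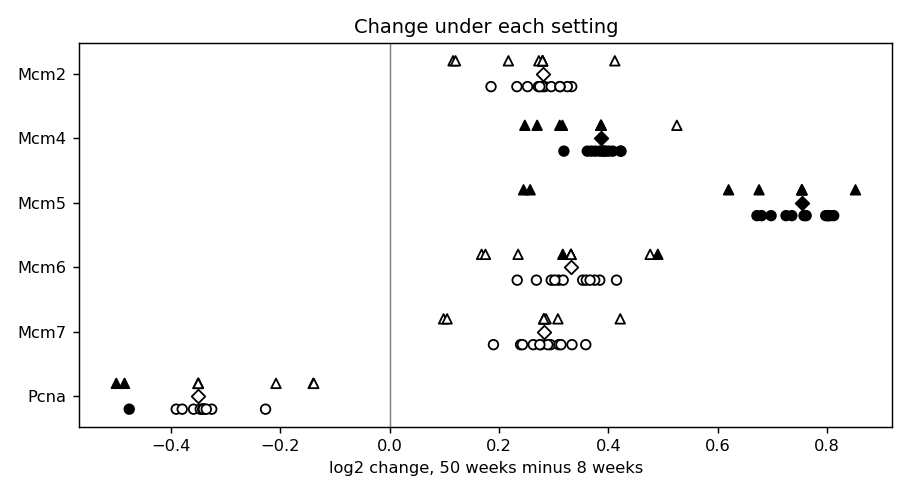
Log2 change with age (horizontal axis) of the 6 measured member genes under every setting tried. Diamonds are the values reported, circles leave out 1 array each, and triangles are other settings, with filled symbols for an adjusted p under 0.05. Mcm5 is filled throughout, Mcm4 is open only with median scaling, and Pcna stays below 0 and is filled in 3 settings.

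Of the genes that load and start the helicase, a single one passed. The list of origin licensing and initiation held 23 genes, of which 11 were measured, 0 rose and 1 fell, with a median difference of -0.05. The one that fell was Orc5, a subunit of the origin recognition complex, by 0.28 ± 0.09 on the log2 scale (SE; limma, adjusted p = 0.0461), and its call ended in 13 of 21 alternatives, including 10 of the 12 that left out 1 array (limma, adjusted p up to 0.0985). Cdt1, the loading factor, differed by 0.22 ± 0.12 (limma, adjusted p = 0.241). Cdc7, the activating kinase, differed by 0.36 ± 0.15 (limma, adjusted p = 0.148) and Cdc45, the helicase cofactor, by 0.32 ± 0.20 (limma, adjusted p = 0.331). Both were near background, with Cdc7 detected on 2 arrays at 8 weeks and 5 at 50 weeks, and Cdc45 on 3 and 4.

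Of 34 genes of the fork, 24 were measured, 1 rose and 0 fell, and 19 had a positive difference, with a median of 0.11. Prim2, the large primase subunit, differed by 0.49 ± 0.11 (SE; limma, adjusted p = 0.011) from 4.79 to 5.28, with every old array above every young array. It was detected on 1 array at 8 weeks and on all 6 at 50 weeks, so it entered through its old arrays, and on the authors' values it differed by 0.10 (limma, adjusted p = 0.363). Pold2, a subunit of the polymerase that Pcna holds, differed by 0.27 ± 0.09 (limma, adjusted p = 0.0512). It passed in 7 of 21 alternatives, with 0.0141 without 50 weeks array 6 and 0.0454 without 8 weeks array 4. Fen1, the flap nuclease that binds Pcna, differed by 0.28 ± 0.10 (limma, adjusted p = 0.0845, and 0.0483 without 8 weeks array 6), and Rfc2, of the loader of the clamp, by 0.22 ± 0.08 (limma, adjusted p = 0.102, and 0.0385 as the mean of its probes).

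Genes of deoxynucleotide supply moved in both directions, with 1 higher and 1 lower of 6 measured. Dctd, the deaminase that leads to thymidylate, fell by 0.43 ± 0.09 on the log2 scale (SE; limma, adjusted p = 0.00784), with no overlap of the ages. Its call ended with median scaling and on the authors' values (limma, adjusted p = 0.411 and 0.0519). Samhd1, an enzyme that degrades deoxynucleotides and is abundant in myeloid cells, rose by 0.45 ± 0.11 (limma, adjusted p = 0.0197). Its other kept probes differed by 0.02 and 0.24 without passing, and the mean of its probes did not pass (limma, adjusted p = 0.327). Rrm1, the large ribonucleotide reductase subunit, differed by 0.13 ± 0.10 (limma, adjusted p = 0.437) and Tyms, thymidylate synthase, by -0.11 ± 0.13 (limma, adjusted p = 0.639).

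Among 16 measured cyclins, kinases and E2F genes of G1/S, 1 rose and 2 fell. Ccnd3, a D-type cyclin also used by lymphocytes, rose by 0.59 ± 0.08 (SE; limma, adjusted p = 0.000405), from 8.49 ± 0.09 to 9.08 ± 0.12 (SD, n = 6), with no overlap of the ages. E2f5, an E2F of the repressor type, fell by 0.49 ± 0.11 on the log2 scale (limma, adjusted p = 0.0133, and 0.208 with median scaling). The brightest Cdk2 probe fell by 0.31 ± 0.07 (limma, adjusted p = 0.0142), while its other kept probes differed by 0.06 and 0.14, so the gene's direction is uncertain (mean of probes, limma, adjusted p = 0.832). Tfdp1, a dimer partner of E2F, differed by 0.28 ± 0.09 (limma, adjusted p = 0.0609). It passed in 6 of 21 alternatives, with 0.008 without 50 weeks array 6 and 0.0477 without 8 weeks array 2.

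Mitotic transcripts were mostly at background. Of 31 mitotic genes with a probe, 6 were measured (19.4%), against 24 of 34 fork genes (70.6%) and 11 of 23 licensing genes (47.8%). Over the whole array 9379 of 19057 genes with a probe were measured. The brightest probes of 16 of the 31 were detected on 0 of 12 arrays, among them those of the cyclins Ccna2 and Ccnb2 and of Cdk1. Of the 6 measured, 0 passed in either direction and the median difference was 0.12. Plk1, the polo-like kinase, differed by 0.28 ± 0.15 (limma, adjusted p = 0.256) and was detected on 1 array at 8 weeks and 5 at 50 weeks. Without 8 weeks array 3, the highest young array at 5.52, it differed by 0.42 and passed (limma, adjusted p = 0.0205). Plk1 entered through its old arrays, and this value leaves out the one young array that detected it. The checkpoint kinase Bub1b differed by 0.11 ± 0.09, the midzone kinesin Kif23 by -0.10 ± 0.09, and Cdc20, an activator of the anaphase-promoting complex, by 0.20 ± 0.19 (limma, adjusted p = 0.465, 0.545 and 0.559).

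**Figure D5:**
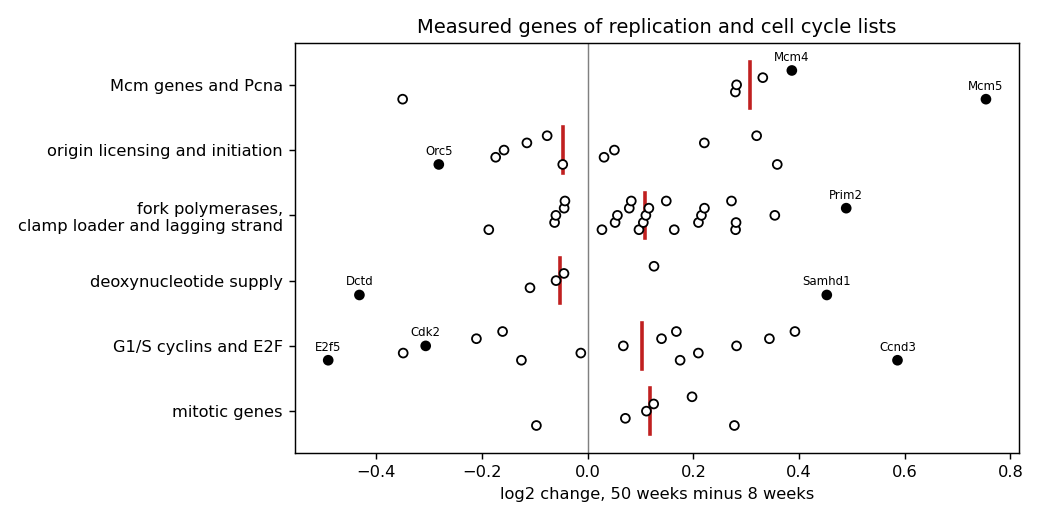
Log2 change with age (horizontal axis) of the measured genes of each list (rows), 1 point a gene. Filled, named points passed at an adjusted p under 0.05, and red bars are medians. Mcm4 and Mcm5 rose. In the other lists Prim2, Samhd1 and Ccnd3 rose, and Orc5, Dctd, E2f5 and Cdk2 fell. The median is 0.31 for the members and lies between -0.05 and 0.12 for the other lists.

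Markers of immune cells, which include dividing cells, were higher at 50 weeks. Of 3 measured genes of B and plasma cells, of 8 listed, 2 rose. The log2 of their summed linear levels, all 3 included, was 6.06 to 7.48 at 8 weeks and 7.22 to 9.36 at 50 weeks. The 2 that rose, Mzb1 and Pou2af1, were detected on 2 and 1 of the young arrays and on all 6 old ones, so they entered through their old arrays. Tnfrsf17 was detected on 0 of 12 arrays. Of 4 measured T and NK cell genes, of 8 listed, 3 rose, with sums of 6.76 to 8.16 and 8.02 to 8.88. Gzmb and Cd8a were detected on 0 of 12 arrays. Cd3g and Cd3d, each detected on 2 young and 6 old arrays, also entered through the old arrays. Of 7 macrophage genes, all measured, 6 rose, with 9.95 to 11.00 and 10.72 to 11.36. On 50 weeks array 6, the array that stood apart, the macrophage sum was 10.72, the lowest of the old arrays. The B and plasma cell sum there was 8.31 and the T and NK cell sum 8.44. Each of these sums was highest on 50 weeks array 1. Of the germinal centre list 2 genes were measured and 0 passed, and Cr2 was detected on 0 of 12 arrays. The part of these cells in the rise of Mcm4 and Mcm5 was not tested.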

How the data were processed

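Members and lists were chosen with earlier results of these data known. RNA was extracted with Trizol and RNeasy columns and labelled with the Ambion MessageAmp kit, per the labels' protocols; the sources used here do not name the scanner or summary software. The deposited table holds a linear intensity for each probe and array with no stated scaling, and, per the file headers, a detection p-value for each. In a second deposited table each array's intensity is that of the first times a constant set by the authors (0.803 to 1.26), as a comparison of both showed; it is linear and uncentred, every array has a mean of 260.6, and array medians run from 93.6 to 121.

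Intensities were background-corrected from the detection p-values and quantile-normalised with neqc (limma 3.58.1, R 4.3.3, offset 16), giving log2 values. Probes with detection p under 0.05 on at least 6 of 12 arrays were kept (16254). Symbols came from the array annotation (34885 probes with 1 symbol, 18 with several, 10378 with none). Of the former, 34807 matched a RefSeq gene number (names of GRCm38.p6), with 0 symbols changed. The brightest kept probe stood for a gene (9379 genes). Ages were compared by limma's moderated test (lmFit, eBayes; 2-sided; Benjamini-Hochberg); the script was tested on simulated data. Exact permutation tests used every arrangement of the arrays. The number of arrays limits the precision.

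Named genes are the members with every probe, the 4 genes with the lowest adjusted p in each list, and the 5 genes most and 3 least like the measured Mcm genes. The members and lists were read by counts and medians, with no set test. Alternatives were the between-array scaling, the background correction, the authors' values (log2 of the value plus 16), the detection filter (none, or p under 0.01 on all 12 arrays), the mean of probes, array weights, the replicate number as a block and leaving out each array, and, chosen after seeing the data, leaving out 8 weeks array 2 with 50 weeks array 6. Promoter windows were searched with Python 3.11.15.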

Additional observations from a re-analysis of the deposited data

Results flagged for a closer look

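Of 56 sets of 6 arrays examined (8 member probes and 20 named genes of the lists, at each age), 4 had an end value whose gap to the next exceeded, as a share of the range, Dixon's 95% critical value; chance gives about 1 in 20. None was a member probe. Cdt1 was 6.15 on 50 weeks array 6, against 5.73 on the next array. Dctd was 6.39 on 8 weeks array 1, against 6.62 on the next, and 5.93 on 50 weeks array 5, against 6.21. Plk1 was 5.52 on 8 weeks array 3, against 4.83 on the next.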

How the results depend on the processing

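Depth is not defined for these arrays, and signal near background limits Mcm5, Prim2 and the dim Mcm6 probes. Mcm5 kept its direction and its call in all 20 alternatives that tested it, from 0.24 to 0.85; the strict detection filter left it out. Mcm4 kept both in 20 of 21. Over all genes 1171 passed, 50.9% of them higher, against 81.4% with median scaling (393 passed, 4.19%) and 61.1% on the authors' values. Array weights gave 2593 genes (27.6% of all) and 14 of the 63 measured list genes, against 7. The strict filter left 1 member gene (Mcm4) and 1 member probe, against 2 and 4, when 15.5% of all genes passed. The authors' values, on which 9.51% of all genes passed, gave 2 member probes, and 5 member genes by exact permutation, against 3. Without both 8 weeks array 2 and 50 weeks array 6, 2539 genes passed (27.1% of all). So did 4 member genes (also Mcm6, 0.32, limma adjusted p = 0.047, and Pcna) and 14 list genes. Leaving out 1 array gave 811 to 2354 genes (8.65% to 25.1% of all), with 2 to 3 member genes and 2 to 5 member probes. It also gave 2 to 5 member genes by permutation and 6 to 12 list genes. The share of all genes by permutation was taken in the main setting only. Permutation counts of other settings therefore stand without a share beside them. The highest gene count was without 50 weeks array 6, 5 member genes by permutation without 8 weeks array 1, and 2 member probes without 8 weeks array 5 or 50 weeks array 2, where the Mcm4 probe missed the threshold among all probes (limma, adjusted p = 0.0502 and 0.0508) but not among genes. Tyms (-0.17 to 0.0086 with 1 array left out) turned to 0.066 with median scaling, 0.0086 without 50 weeks array 6 and 0.022 without both arrays, and Kif23 to 0.034 with median scaling and 0.047 as the mean of probes. Cdc7 passed with array weights (0.42) and without both arrays (0.49). The cause of these shifts was not tested.

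Replicate numbers are shared between the ages, and deviations of same-numbered arrays correlated at -0.009 to 0.30, over 0.1 in 5 of 6 pairs. Of 12 arrays, 3 correlated best with their own number. The labels name no pairing, so the main comparison did not take the numbers as pairs. Whether they mark pairs was not tested. With the replicate block 911 genes (9.71% of all), 2 member genes (Mcm4, Mcm5), 3 member probes and 5 list genes passed. The calls of Orc5, Cdk2 and ILMN_2803399 ended.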
